A study of Mus musculus with 8 samples.

Results

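Ebf1 and the early B cell programme were followed as 10 genes measured by 16 probe sets, among 12393 genes with a single symbol on the array. The genes are those listed around Ebf1: the transcription factors and cofactor Ebf1, Pax5, Tcf3 and Pou2af1, the surrogate light chain genes Igll1, Vpreb1 and Vpreb3, the B cell receptor signalling chains Cd79a and Cd79b, and the surface protein gene Ms4a1. A probe set counted as a member where the platform annotation gives it exactly 1 symbol and that symbol is on the list. RNA came from CD44hi cells (4 arrays) and CD44lo cells (4 arrays), subpopulations purified by the hyaluronan receptor CD44 from stable mouse T cell lymphoma lines, and was hybridised to Affymetrix Mouse 430A 2.0 arrays. Both subpopulations are Snf5-deficient (Snf5 is a subunit of SWI/SNF, a complex that moves nucleosomes), so no Snf5-proficient cells serve as a comparison. The labels give neither the number of lines nor the line, culture or animal behind an array, nor how Snf5 was removed, so every p-value rests on array-to-array spread alone, and that spread may be technical.

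EBF1 is the transcription factor that, with the E protein E2A (gene Tcf3) and then PAX5, commits lymphoid progenitors to the B lineage. In B cell progenitors it binds DNA as a dimer and activates Pax5, the signalling chains of the B cell receptor and the surrogate light chain, while genes of other lineages are held down. T cells do not normally express Ebf1, whereas E proteins act in both lineages. The question put to CD44hi and CD44lo is which genes of this programme go with Ebf1 in T lymphoma cells.

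The member genes were chosen by the difference of Ebf1 between CD44hi and CD44lo on these same 8 arrays, together with its known partners and targets. All their differences between CD44hi and CD44lo are therefore descriptions, any count of members past a threshold is given only beside the share of all genes, and the standard errors (SE) are those of the limma fit over all probe sets.

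RefSeq promoter windows (mouse assembly GRCm38.p6) were found for 8 of the 10 genes, 9 windows in all because Ebf1 has 2, and the 250 bases upstream of each start were searched on both strands. The promoters of 3 target genes are shown because they hold an EBF site core or an octamer, with that match in capitals, and that of Igll1 as a target with neither. E boxes, common in all promoters, are left in lower case.
Cd79a, chr7:24897247-24897496, plus strand: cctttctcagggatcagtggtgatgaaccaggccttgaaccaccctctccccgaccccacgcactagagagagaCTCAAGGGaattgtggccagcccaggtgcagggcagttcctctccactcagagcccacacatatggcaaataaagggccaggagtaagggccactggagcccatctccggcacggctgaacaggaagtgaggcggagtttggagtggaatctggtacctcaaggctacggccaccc
Vpreb1, chr16:16869256-16869505, minus strand: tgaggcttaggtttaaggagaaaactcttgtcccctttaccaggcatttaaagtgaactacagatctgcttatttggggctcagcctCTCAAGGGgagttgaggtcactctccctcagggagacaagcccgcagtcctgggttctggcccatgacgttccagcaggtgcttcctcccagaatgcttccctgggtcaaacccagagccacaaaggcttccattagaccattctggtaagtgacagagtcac
Vpreb3, chr10:75948050-75948299, plus strand: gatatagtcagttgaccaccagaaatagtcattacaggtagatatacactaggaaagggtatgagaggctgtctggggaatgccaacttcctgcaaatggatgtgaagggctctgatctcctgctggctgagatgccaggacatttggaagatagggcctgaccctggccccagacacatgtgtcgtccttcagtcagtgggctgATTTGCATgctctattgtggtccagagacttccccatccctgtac
Igll1, chr16:16863986-16864235, minus strand: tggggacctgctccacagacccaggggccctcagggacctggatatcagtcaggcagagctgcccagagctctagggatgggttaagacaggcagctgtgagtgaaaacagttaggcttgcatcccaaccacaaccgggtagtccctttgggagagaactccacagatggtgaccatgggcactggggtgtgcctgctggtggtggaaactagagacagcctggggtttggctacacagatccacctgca

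The capitals in Cd79a and Vpreb1 are CTCAAGGG, the core of the site in the Cd79a promoter through which EBF was first described. It lies 176 to 169 bases upstream of the start in Cd79a and 163 to 156 bases upstream in Vpreb1. These are 2 of the 9 member windows, and 1.01% of 32851 mouse windows of the same length hold it. The palindromic EBF consensus, TCCC and GGGA with any 2 bases between them, was in 0 of the 9 windows and in 0.779% of all. The capitals in Vpreb3 are the octamer ATTTGCAT, 45 to 38 bases upstream, a letter string of the octamer factors for which Pou2af1 codes a coactivator, and 1.60% of all windows hold it. The E box CANNTG of E proteins was in 8 of 9 member windows, the 4 printed ones included, and in 66.2% of all. None of the 3 matches in capitals overlaps another searched motif. The motifs were chosen with the expression values known, and a match is a string of letters, not a shown binding site.

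Ebf1 was high in CD44hi and low in CD44lo with each of its 3 probe sets. On the log2 intensity scale, probe set 1416301_a_at read 11.59, 12.43, 11.47 and 12.07 in CD44hi replicates 1 to 4, against 4.21, 5.68, 5.42 and 5.91 in CD44lo replicates 1 to 4. The groups lay far apart, and the lowest CD44lo value was that of replicate 1. Probe set 1416302_at read 10.43, 11.37, 10.40 and 11.11 in CD44hi and 4.36, 4.61, 4.38 and 5.03 in CD44lo. Probe set 1448293_at read 9.69, 10.45, 9.22 and 9.98 in CD44hi and 4.86, 4.52, 4.44 and 4.75 in CD44lo. All 3 probe sets ordered the CD44hi arrays the same way, with replicate 2 highest, then 4, 1 and 3.

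With 1416301_a_at the mean level of Ebf1 was 11.89 ± 0.44 in CD44hi, against 5.30 ± 0.76 in CD44lo (SD, n = 4 each), a log2 difference of 6.58 (SE 0.37), or 96.0-fold. It was 10.83 ± 0.49 in CD44hi and 4.59 ± 0.31 in CD44lo with 1416302_at, a difference of 6.23 (SE 0.25). With 1448293_at it was 9.83 ± 0.52 in CD44hi and 4.65 ± 0.20 in CD44lo, a difference of 5.19 (SE 0.24), so the size depended on the probe set. The 27 bacterial control probe sets, for genes that mice do not have, ran between 3.27 and 5.86 over the arrays. With 1416302_at and 1448293_at all 4 CD44lo arrays lay at or under the highest control of the same array, and with 1416301_a_at 2 of 4 did, so the CD44lo level was close to background and the folds are uncertain in size. No CD44hi array of Ebf1 lay within the controls. In RNA from sorted populations, a change in the number of expressing cells and a change in RNA per cell cannot be told apart, for Ebf1 as for the other genes.

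The Ebf1 paralogs, which share its DNA-binding domain, showed no such difference. Ebf3 was at 6.64 ± 0.10 in CD44hi and 6.75 ± 0.07 in CD44lo, and Ebf2 at 5.26 ± 0.16 in CD44hi, against 5.30 ± 0.18 in CD44lo (SD, n = 4 each). Ebf2, and Zfp423 and Zfp521, which code for zinc finger proteins that can bind and block EBF1, were within the bacterial controls on all 8 arrays. Of the 4 measured genes of the EBF family and its antagonists 0 passed the test (limma, Benjamini-Hochberg adjusted p under 0.05 over 22626 probe sets), and 0 had an unadjusted p under 0.05.

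**Figure D1:**
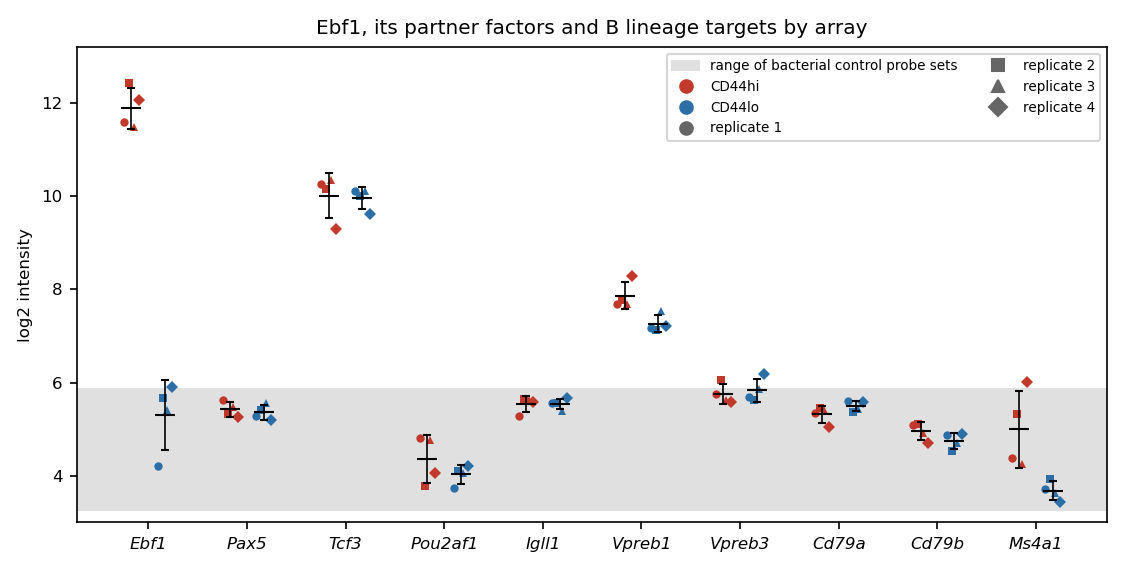
Log2 intensity (vertical axis) of the 10 member genes, 1 probe set a gene, in 4 CD44hi arrays (red, left) and 4 CD44lo arrays (blue, right); marker shapes give the replicate number, bars the mean and SD, and the grey band the range of the bacterial control probe sets (3.27 to 5.86). Ebf1 alone crosses from the band in CD44lo to near 12 in CD44hi, Tcf3 stays near 10 in both, and Vpreb1 lies above the band in both groups.

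The partner factors did not share the pattern of Ebf1. Pax5, which maintains B cell identity and lies directly downstream of EBF1 in B cell progenitors, read 5.63, 5.33, 5.48 and 5.27 in CD44hi and 5.28, 5.41, 5.56 and 5.20 in CD44lo. The groups overlapped, and all 8 values lay within the bacterial controls. The mean was 5.43 ± 0.16 in CD44hi, against 5.36 ± 0.16 in CD44lo (SD, n = 4 each), a difference of 0.07 (SE 0.11).

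Tcf3 codes for the E proteins E12 and E47, which act with EBF1 on B lineage promoters and also serve T cell development. Its probe set 1426297_at read 10.26, 10.15, 10.34 and 9.29 in CD44hi and 10.10, 10.01, 10.11 and 9.62 in CD44lo. Tcf3 was thus well above the controls on every array, with overlapping groups and with replicate 4 lowest in both. The difference was 0.05 (SE 0.23), and that of its other probe sets was -0.07 for 1427764_a_at and 0.09 for 1452542_x_at.

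Pou2af1 codes for the B cell coactivator OCA-B, which joins octamer factors on immunoglobulin promoters. It read 4.82, 3.78, 4.78 and 4.06 in CD44hi and 3.74, 4.11, 4.06 and 4.20 in CD44lo. All 8 values lay within the bacterial controls and the groups overlapped, with CD44hi replicates 1 and 3 above all other arrays. The difference was 0.33 (SE 0.24) over all arrays, 0.90 when CD44hi and CD44lo arrays 1 and 3 were taken by themselves, and -0.23 for arrays 2 and 4.

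The surrogate light chain, made of lambda 5 (Igll1) and VpreB proteins, pairs with the immunoglobulin heavy chain in the pre-B cell receptor. Vpreb1 read 7.69, 7.77, 7.68 and 8.30 in CD44hi and 7.17, 7.12, 7.53 and 7.21 in CD44lo. Every CD44hi value lay above every CD44lo value, with CD44hi replicate 4 highest and CD44lo replicate 3 closest to the other group. The mean was 7.86 ± 0.29 in CD44hi, against 7.26 ± 0.18 in CD44lo (SD, n = 4 each), a difference of 0.60 (SE 0.16) or 1.52-fold. A further probe set, assigned to both Vpreb1 and its near-identical paralog Vpreb2 and therefore outside the rule, was at 6.84 ± 0.11 in CD44hi, against 6.44 ± 0.04 in CD44lo (SD, n = 4 each), also without overlap. Which of the paralogs gave the signal is uncertain.

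Igll1, which lies beside Vpreb1 on chromosome 16 in the assembly above, did not share this. Its probe set 1420176_x_at read 5.29, 5.65, 5.63 and 5.58 in CD44hi and 5.56, 5.57, 5.40 and 5.66 in CD44lo, a difference of -0.01 (SE 0.10). The second probe set, 1420177_at, differed by -0.15 (SE 0.09) and lay within the controls on all arrays. Vpreb3, a VpreB-related gene of B cell precursors, read 5.75, 6.05, 5.64 and 5.57 in CD44hi and 5.69, 5.62, 5.86 and 6.18 in CD44lo, with overlapping groups and a difference of -0.08 (SE 0.15).

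Cd79a and Cd79b code for Ig-alpha and Ig-beta, the signalling chains without which a B cell receptor cannot reach the surface. Cd79a read 5.35, 5.46, 5.42 and 5.05 in CD44hi and 5.60, 5.37, 5.44 and 5.57 in CD44lo. Cd79b read 5.09, 5.12, 4.92 and 4.70 in CD44hi and 4.87, 4.53, 4.71 and 4.90 in CD44lo. For both genes the groups overlapped, and 15 of the 16 values lay within the bacterial controls. The differences were -0.18 (SE 0.11) for Cd79a, whose promoter above holds the EBF site core, and 0.21 (SE 0.12) for Cd79b.

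Ms4a1 codes for CD20, a surface protein of B cells from the pre-B stage on. Probe set 1450912_at read 4.39, 5.33, 4.25 and 6.01 in CD44hi and 3.71, 3.94, 3.63 and 3.44 in CD44lo. The groups did not overlap, yet 3 of the 4 CD44hi values lay within the bacterial controls, replicate 4 being the exception. Probe set 1423226_at read 4.35, 5.41, 3.93 and 4.77 in CD44hi and 3.63, 3.79, 4.02 and 3.89 in CD44lo, with overlap. All 8 of these values lay within the bacterial controls. The differences were 1.31 (SE 0.36) and 0.78 (SE 0.28).

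Of the 10 genes, 3 had groups that did not overlap (Ebf1, Vpreb1 and Ms4a1), all higher in CD44hi, where 10.3% of all genes did not overlap and 5.29% did so with CD44hi higher. Of the 16 probe sets 5 did not overlap, against 9.34% of all probe sets and 4.73% with CD44hi higher. Ebf1 was the 1 member gene past the threshold of the limma fit (adjusted p under 0.05), which 3.51% of all genes passed, 1.88% as higher and 1.63% as lower. With the replicate number as a block Ebf1 was again the 1 member, and 5.66% of all genes passed. Its 3 probe sets were the only member probe sets past the threshold in the fit without the block, against 3.12% of all probe sets, 1.64% higher and 1.48% lower, and 5.15% passed with the block. The probe set shared by Vpreb1 and Vpreb2, which is outside the rule, also passed both fits. Nothing is read from these counts, since the contrast served to choose the members and is no test of them. Over the 9 genes other than Ebf1 the differences ran between -0.18 and 1.31 with a median of 0.07, and over all genes the median was -5.86e-05, with the percentiles 5 and 95 at -0.35 and 0.35.

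**Figure D2:**
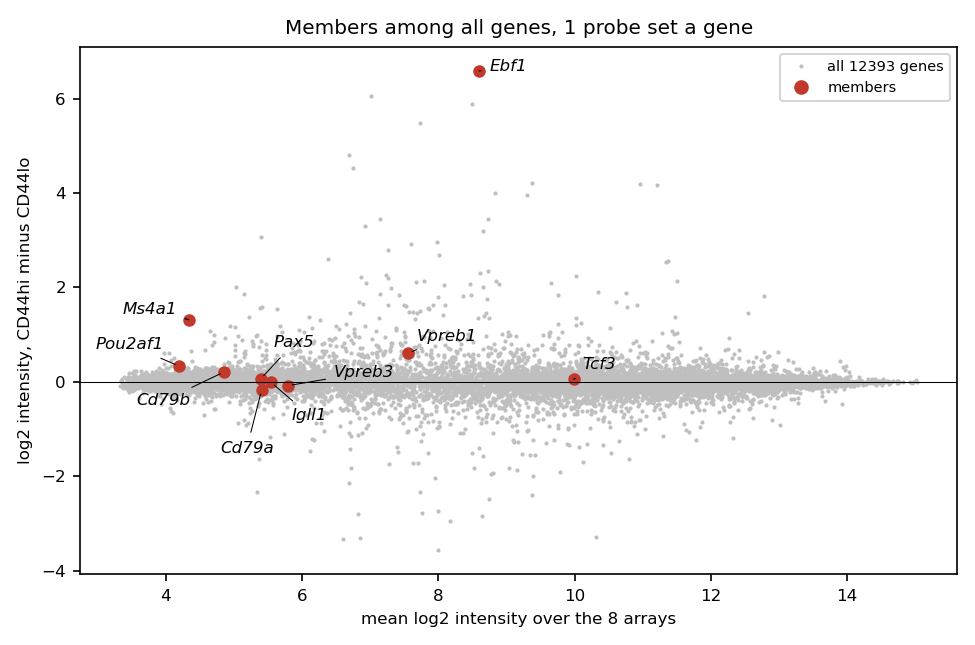
Difference in log2 intensity, CD44hi minus CD44lo (vertical axis), against the mean log2 intensity over the 8 arrays (horizontal axis) for 12393 genes (grey), with the 10 members in red. Ebf1 stands at 6.58, and the other members lie between -0.18 and 1.31, mostly at the dim end of the axis.

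The difference at each replicate number shows how steady these values were. For Ebf1 with 1416301_a_at it was 7.38, 6.75, 6.05 and 6.15 at numbers 1 to 4, always with CD44hi higher. For Vpreb1 it was 0.52, 0.65, 0.16 and 1.09, and for Ms4a1 with 1450912_at 0.68, 1.39, 0.62 and 2.56, again higher in CD44hi at every number, as were 14.1% of all genes. Pax5 differed by 0.35, -0.08, -0.08 and 0.07, and Cd79a by -0.25, 0.09, -0.02 and -0.52, so their direction varied with the number.

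**Figure D3:**
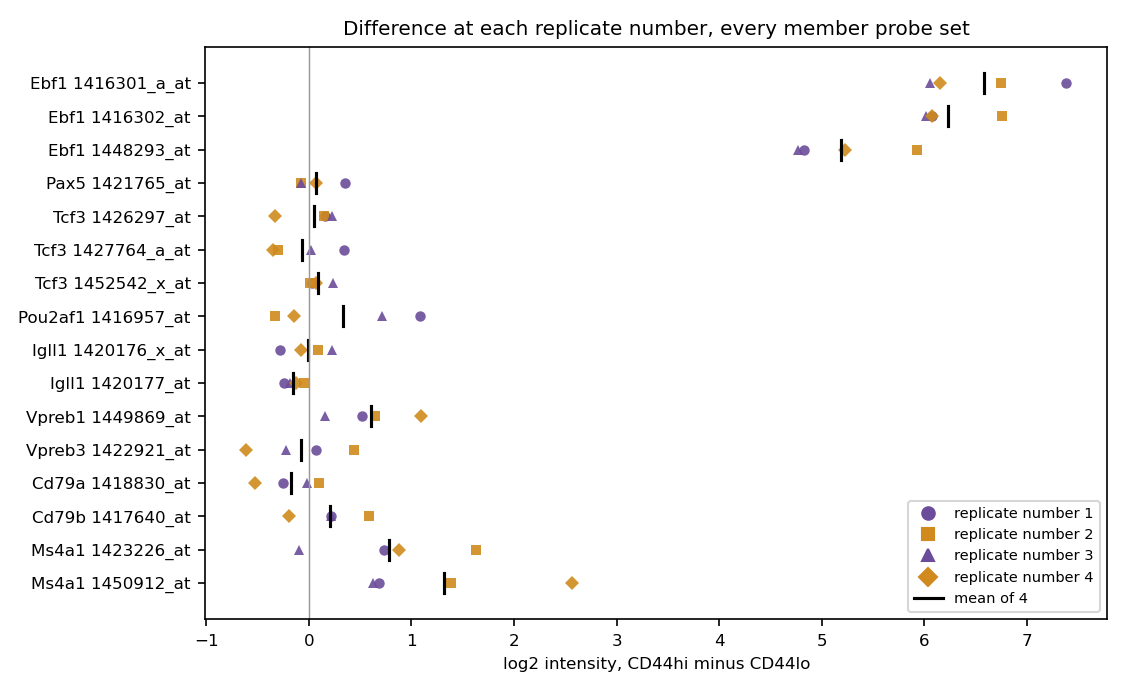
Difference in log2 intensity, CD44hi minus CD44lo (horizontal axis), at each replicate number for the 16 member probe sets (rows), with the mean as a black line; numbers 1 and 3 are purple, 2 and 4 orange. The 3 Ebf1 probe sets lie between 4.77 and 7.38, and Ms4a1 spreads with the numbers 2 and 4 at the right of 1 and 3.

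Over all genes, arrays 1 and 3 of a group resembled each other, as did arrays 2 and 4. Within CD44hi, the root mean square log2 difference was 0.18 between replicates 1 and 3, 0.30 between 2 and 4, and 0.41 to 0.48 between members of different pairs. Ebf1 was higher in CD44hi replicates 2 and 4 than in 1 and 3, by 0.71 on average with 1416301_a_at, and 3.97% of all genes differed at least as far in that direction. Ms4a1 with 1450912_at was higher there by 1.34, and 0.565% of genes differed as far. Both Ms4a1 probe sets thus had their higher values in the CD44hi arrays with more Ebf1, but mostly on values at background. In CD44hi 3 of 4 values with 1450912_at and 4 of 4 with 1423226_at lay within the bacterial controls. In CD44lo all Ms4a1 values lay within the bacterial controls, so no such shift could be read there, and the shift in CD44hi is uncertain. For Ebf1 the same measure in CD44lo depended on the probe set, at 0.98 with 1416301_a_at, 0.45 with 1416302_at and -0.01 with 1448293_at, mostly on values within the controls. Tcf3 with 1426297_at was lower in CD44hi replicates 2 and 4, by a mean difference of -0.58, and 5.99% of genes differed as far. With this probe set the difference came mainly from replicate 4. In CD44hi it was -0.78 with 1427764_a_at and -0.41 with 1452542_x_at, and there replicates 2 and 4 both lay under 1 and 3. Tcf3 was also lower in CD44lo replicates 2 and 4, at -0.29 with 1426297_at, -0.27 with 1427764_a_at and -0.32 with 1452542_x_at. For Pou2af1 the difference in CD44hi was -0.87 (2.35% of genes as far), with all values within the controls. With 4 arrays in a group no correlation is given.

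The genes whose profile over the 8 arrays was most like that of Ebf1 were found by the root mean square (RMS) difference of mean-centred log2 values, and are also a description. The values were not scaled, so this measure mainly follows the size of the difference between CD44hi and CD44lo. They were, in order, Cplx2, a regulator of vesicle fusion (RMS 0.64), Cd86, a costimulatory ligand (0.73), the sorted marker Cd44 (0.75), the secreted protease Adamts1 (1.04), Sowaha (1.18), Ctla2a (1.26), Cd24a, a surface glycoprotein of immature lymphocytes (1.30), and Art3 (1.36). These genes shared a large step down from CD44hi to CD44lo, and none is a member. In CD44lo Ctla2a was still at 9.13 and Art3 at 7.27. All 4 CD44lo arrays of Cplx2, Cd86, Adamts1 and Sowaha and 3 of Cd44 lay within the bacterial controls, as did 2 of the 4 of Ebf1 with 1416301_a_at, so their order rests in part on values at background. Cplx2 was at 10.04 in CD44hi and 3.98 in CD44lo, and Cd86 at 10.47 in CD44hi and 4.99 in CD44lo. Cd24a, whose product is abundant on B cell precursors as well as thymocytes, was at 10.60 in CD44hi and 6.35 in CD44lo with the probe set most like Ebf1. The nearest other member, Ms4a1, had an RMS difference of 2.71 and Vpreb1 one of 3.04, while Pax5, Cd79a and Igll1 lay between 3.31 and 3.43.

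**Figure D4:**
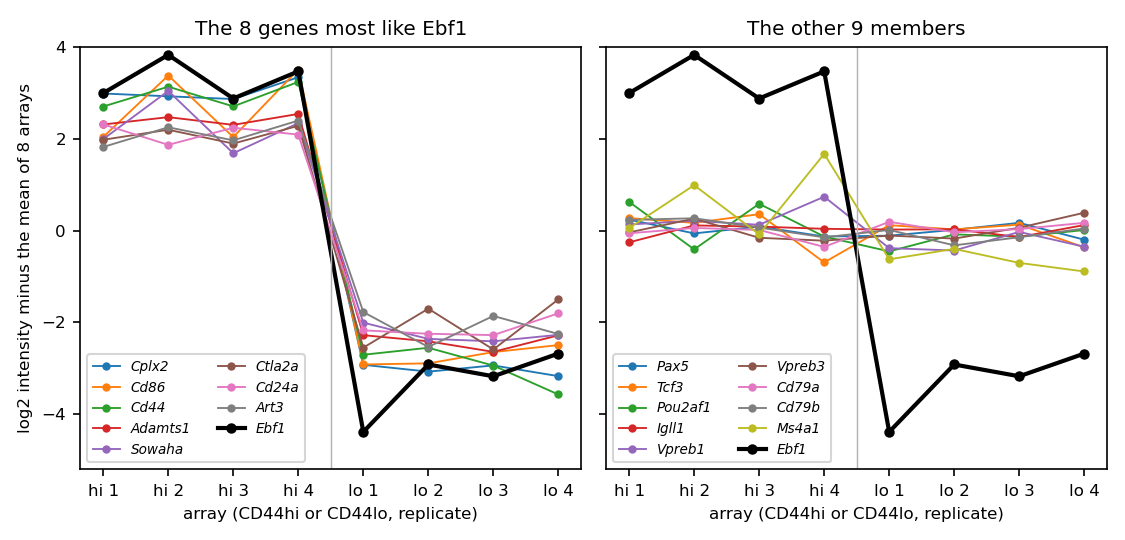
Log2 intensity minus the mean of the 8 arrays (vertical axis) for each array (horizontal axis; CD44hi 1 to 4, then CD44lo 1 to 4), with Ebf1 in black, its 8 most similar genes at left and the other 9 members at right. The similar genes step down with Ebf1 between the groups (RMS differences 0.64 to 1.36), and of the other members Ms4a1 moves most.

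Around the members, 7 lists of genes of the same pathway held 77 further genes, of which 63 were measured. In CD44hi 3 of these rose and 1 fell (limma, adjusted p under 0.05), or 6.35% against 3.51% of all genes. The lists were written with earlier results of these data known, so this share is a description and no test of the lists. The median difference of the 63 was -0.0019, and 24 of them lay within the bacterial controls on all arrays. Without CD44hi replicate 1 or 2, or CD44lo replicate 2, 3 or 4, 2 rose and 1 fell, and without CD44hi replicate 3, 3 rose and 2 fell. With arrays averaged by 1 and 3 and by 2 and 4, Gata3 alone passed (limma adjusted p = 0.0427), and the calls of Il7r, Id2 and Cebpa were lost (limma adjusted p = 0.154, 0.431 and 0.437).

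Of 7 measured genes that EBF1 is reported to repress in B cell progenitors, 2 rose and 1 fell, with a median difference of 0.14, where 1.88% of all genes rose and 1.63% fell. Gata3, the T lineage factor, fell to 6.13, 6.26, 6.26 and 6.19 in CD44hi, against 9.76, 9.71, 9.43 and 10.21 in CD44lo, with far-apart groups (log2 difference -3.57, SE 0.15, limma adjusted p = 4.44e-06). Its fall was known when the list was written, so it is not independent evidence of a direction. Id2, an inhibitor of E proteins such as those of Tcf3, rose to 13.13 ± 0.17 in CD44hi, against 12.59 ± 0.12 in CD44lo (SD, n = 4 each), by 0.54 on the log2 scale (SE 0.11, adjusted p = 0.0269 in limma). Further Id2 probe sets differed by 0.29 and 0.00048, so this size depends on the probe set. Cebpa, a myeloid and adipocyte factor, rose to 8.48 ± 0.10 in CD44hi, against 7.96 ± 0.04 in CD44lo (SD, n = 4 each; log2 difference 0.52, SE 0.08, limma adjusted p = 0.00669). Notch1, Id3, Zbtb16 and Bcl11b differed by 0.14, 0.24, 0.03 and -0.09 without passing. The Id2 call was lost without CD44hi replicate 1, 2 or 4 and without CD44lo replicate 2, 3 or 4.

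Of 6 measured E protein and Id genes Id2 alone rose and 0 fell. Tcf12, which codes for the E protein HEB, was at 11.55 in CD44hi and 11.72 in CD44lo, and Id1 at 7.31 in CD44hi and 7.04 in CD44lo. Among 7 measured receptors of early B cell progenitors Il7r, the interleukin-7 receptor chain that T cells also use, rose to 12.32, 12.84, 12.36 and 12.93 in CD44hi, against 9.73, 10.30, 9.83 and 10.47 in CD44lo (log2 difference 2.53, SE 0.21, limma adjusted p = 0.000191). The groups were apart on every array, and 0 genes of this list fell. Cxcr4, a chemokine receptor, was at 10.35 ± 1.15 in CD44hi, against 9.29 ± 0.66 in CD44lo (SD, n = 4 each). It did not pass (limma adjusted p = 0.546), but did so as higher once the replicate number was fitted as a block (limma adjusted p = 0.0311). With the averaged arrays it did not pass (limma adjusted p = 1.00).

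In 3 further lists no gene was called, where 3.51% of all genes were called and 12.4% had an unadjusted p under 0.05. Of 19 measured B cell receptor signalling and surface genes 0 were called and 3 had an unadjusted p under 0.05 (limma), with a median difference of -0.08. Cd53 had the largest difference of this list, at -0.60. It was called only without CD44hi replicate 3 and with arrays 2 and 4 alone. The kinase and adaptor genes Blk, Btk, Syk and Blnk, and the coreceptor gene Cd22, lay within the bacterial controls on all 8 arrays. Cd37, a tetraspanin of lymphocytes, was at 13.04 in CD44hi and 13.16 in CD44lo, and Tnfrsf13c, the receptor of the survival factor BAFF, at 11.53 in CD44hi and 11.90 in CD44lo. Tnfrsf13c had a limma adjusted p of 0.0839, and was called as lower under array weights and with arrays 1 and 3 alone. Of 5 measured immunoglobulin and recombination genes 0 were called and 0 had an unadjusted p under 0.05 (limma). Rag1, Rag2 and Dntt, which act in antigen receptor gene rearrangement in precursors of both lineages, were within the controls on all arrays, and Ighm was at 6.76 in both groups. Of 17 measured B lineage transcription factors 0 were called and 0 had an unadjusted p under 0.05 (limma), with a median of 0.04. Foxo1, which acts with EBF1 and E2A in pro-B cells, was at 12.27 in CD44hi and 12.09 in CD44lo, Irf4 at 13.77 in CD44hi and 13.76 in CD44lo, and Cbfb at 13.47 in CD44hi and 13.43 in CD44lo.

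**Figure D5:**
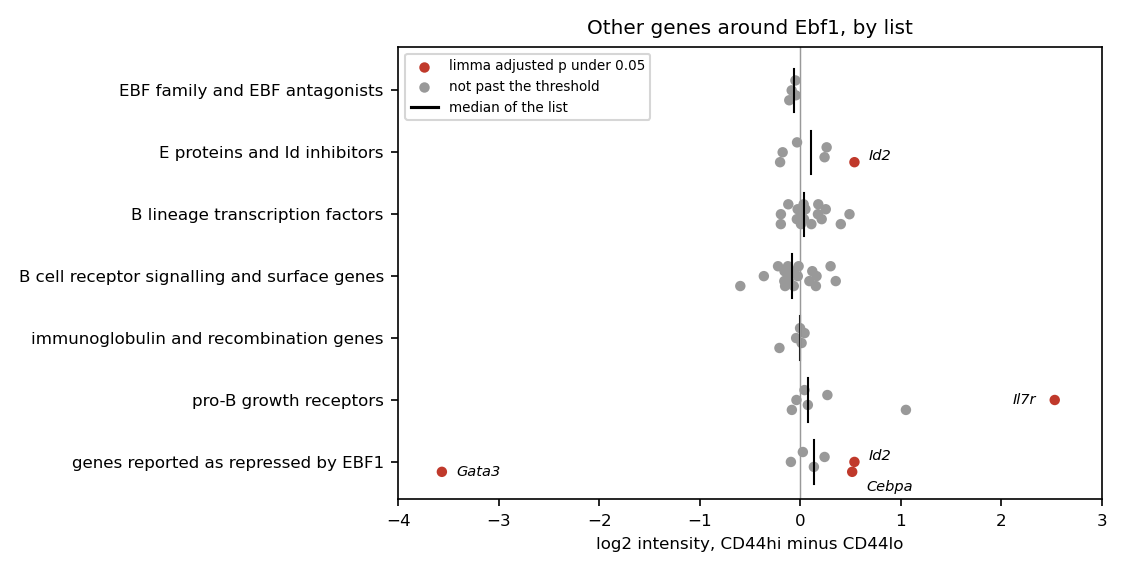
Difference in log2 intensity, CD44hi minus CD44lo (horizontal axis), of the measured genes of 7 pathway lists (rows), 1 probe set a gene; red points passed the limma test, grey points did not, and black lines are list medians. Il7r (2.53), Id2 (0.54) and Cebpa (0.52) lie right of 0 and Gata3 (-3.57) left of it, while list medians stay between -0.08 and 0.14.

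Both groups carried T cell transcripts on all arrays: Cd3d was at 14.14 in CD44hi and 14.18 in CD44lo, Cd3g at 13.94 in CD44hi and 14.00 in CD44lo, and Cd8a at 13.86 in CD44hi and 13.87 in CD44lo, while Cd4, Cd5 and Thy1 lay within the bacterial controls on all 8. The log2 summed intensity of 11 measured T cell markers was 16.38 to 16.44 in CD44hi and 16.44 to 16.51 in CD44lo, and 0 were called. Of 6 measured mature B cell markers 0 were called, with sums of 8.79 to 9.06 in CD44hi and 8.55 to 8.72 in CD44lo. Of these Cd22 and Fcer2a lay within the controls on all arrays, and Cd74, of class II antigen presentation and not confined to B cells, was at 7.10 ± 0.70 in CD44hi, against 6.68 ± 0.17 in CD44lo (SD, n = 4 each). Stromal cells and adipocytes also express Ebf1. Of 8 measured stromal markers 0 were called (sums 12.28 to 12.73 in CD44hi and 12.31 to 12.43 in CD44lo), with Col3a1, Dcn, Lum and Sparc within the controls on all arrays, Pdgfrb at 6.63 in CD44hi and 6.64 in CD44lo, and Fn1 at 12.50 in CD44hi and 12.26 in CD44lo. Of 5 adipocyte markers Cebpa alone was called, with sums of 8.88 to 9.06 in CD44hi and 8.51 to 8.61 in CD44lo, while Adipoq, Fabp4 and Lpl were within the controls and Pparg was at 5.94 in CD44hi and 5.81 in CD44lo. Of 8 myeloid and dendritic cell markers 0 were called (sums 8.97 to 10.56 in CD44hi and 8.99 to 10.11 in CD44lo), with Itgax, Itgam, Cd14, Lyz2 and Adgre1 within the controls, Cd68 at 9.18 in CD44hi and 8.98 in CD44lo, and Batf3 at 6.19 in CD44hi and 5.83 in CD44lo. Of 4 plasmacytoid dendritic cell markers 0 were called (sums 11.39 to 11.94 in CD44hi and 11.46 to 11.68 in CD44lo), with Bst2 at 11.59 in CD44hi and 11.48 in CD44lo, Tcf4 at 6.25 in CD44hi and 6.45 in CD44lo, and Ptcra within the controls.

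Array medians lay between 320.2 and 339.3 on the linear scale. Gapdh control probes near the 3' end exceeded those near the 5' end, a measure of RNA integrity, by 0.760 to 0.877 on the log2 scale in CD44hi and 0.650 to 0.730 in CD44lo. For Actb this measure was 0.468, 0.795, 0.532 and 0.710 in CD44hi replicates 1 to 4. In CD44lo replicates 1 to 4 it was 0.380, 0.610, 0.442 and 0.558. In both groups the Actb measure was thus higher in replicates 2 and 4 than in 1 and 3. The part of these measures in the differences was not tested.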

How the data were processed

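RNA of 4 CD44hi and 4 CD44lo samples was measured on 1-colour arrays, and groups and replicate numbers were taken from the titles. The deposited values are probe set intensity values, which the authors computed by RMA (Robust Multichip Average) according to the extract protocol, per the labels. The sources used here give no version or options. The values lay between 7.61 and 36128, so they were read as linear and log2 was taken with no pseudocount. RMA compresses differences near background. Arrays give no read depth, and their number limits the precision.

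Of 22690 probe sets 64 controls were left out. Of the others 20380 carry 1 symbol in the platform annotation, 691 several and 1555 none. Gene identifiers of 20351 were found in a mouse RefSeq table (GRCm38.p6), which changed 0 symbols. All 22626 probe sets entered 1 linear model (limma 3.58.1, lmFit then eBayes, R 4.3.3), p-values were adjusted by Benjamini and Hochberg, and a gene was represented by its probe set of highest mean. The fit was tested on simulated data with independent noise for each array. The arrays here resembled each other in pairs, so that test cannot show how the fit behaves under such dependence.

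Members and lists were chosen with earlier results of these data known. Named were all members, the 8 genes most like Ebf1, up to 4 called genes of a list and direction (or the 2 brightest where none was called), the 2 brightest genes and any called gene of each marker list, and Cd44, Cd24a, Cd86 and Gata3. Other list genes in the text were chosen after their values were seen.

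Same-numbered arrays deviated together from their group means (correlations across genes 0.404 to 0.574). The main fit was unpaired, and the replicate number entered as a block only as an alternative. Any pairing comes from the values, and correlations between different numbers ran between -0.56 and 0.52. Each CD44hi array correlated most with the CD44lo array of its own number, though a differently numbered array came near (0.574 against 0.521 for CD44hi replicate 1). Seen from CD44lo, replicate 2 was the exception, at 0.458 with CD44hi replicate 4 and 0.404 with CD44hi replicate 2. Alternatives were other normalization, centring, filter, probe set choice, variance model, array weights, the replicate block, leaving out arrays, a stricter threshold and fits by replicate number.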

Additional observations from a re-analysis of the deposited data

Results flagged for a closer look

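Of 94 sets of 4 arrays (47 probe sets in CD44hi and in CD44lo), 5 held a single distant array, where about 1 in 20 groups does so by chance. Among the members this held for Vpreb1, with CD44hi replicate 4 at 8.30 and the others at 7.68 to 7.77. Among other genes it held for Cbfb, with CD44lo replicate 4 at 13.39 and the others at 13.44 to 13.45, for Cd3d, with CD44lo replicate 4 at 14.21 and the others at 14.17 to 14.18, for Cd3g, with CD44hi replicate 4 at 13.89 and the others at 13.96, and for Fn1, with CD44lo replicate 3 at 12.35 and the others at 12.22 to 12.23.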

How the results depend on the processing

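The Ebf1 difference of 6.58 stayed between 6.22 and 6.79 without single arrays, was 6.58 with the replicate block (SE 0.22), and was 5.19 with probe set 1448293_at. Of 195 values of the other 13 member probe sets under alternatives, 187 moved by less than the spread between replicates and 8 by more, all 8 in fits of arrays 1 and 3 alone or 2 and 4 alone. For Vpreb1 these gave 0.34 and 0.87, for Ms4a1 with 1450912_at 0.65 and 1.98, and for Ms4a1 with 1423226_at 0.32 and 1.25. Against 371 higher and 334 lower probe sets, the counts were 191 and 194 with a mean above the median, 571 and 594 when the replicate block was fitted, 620 and 656 under array weights, 14 and 2 with arrays averaged by 1 and 3 and by 2 and 4, 561 and 561 with arrays 1 and 3 alone, 201 and 160 at adjusted p under 0.01, 252 and 220 with 1 probe set a gene, and 256 to 347 and 200 to 338 without single arrays (214, 211 and 200 lower without CD44lo replicate 2, 3 or 4). Of the listed genes, 3 higher and 1 lower, the filter left 2 and 0 (Cebpa and Gata3 lay below it), the replicate block gave 4 and 1 (Cxcr4 added), array weights 4 and 2, averaged arrays 0 and 1 (Gata3), arrays 1 and 3 alone 4 and 2, arrays 2 and 4 alone 3 and 2, and single arrays left out 2 to 3 and 1 to 2. The block changed no call of a member, but arrays 1 and 3 alone also called Pou2af1 and Ms4a1 with 1450912_at, arrays 2 and 4 alone both Ms4a1 probe sets, and averaged arrays 2 of the 3 Ebf1 probe sets. The causes were not tested, beyond fewer arrays or probe sets in some fits.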
